A study of Mus musculus with 8 samples.

Results

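The regions described here are places in the genome where RNA was at least 4-fold richer in the YTHDF3 immunoprecipitate (IP) than in input RNA in every one of 4 peak lists from mouse embryonic fibroblasts (MEFs). They were chosen by the measured enrichment itself. Peaks whose IP value was at least 4 times the larger of the input value and 3 were kept, kept peaks that shared at least 1 bp were joined across the 4 lists, and a merged region was a member when it held a kept peak from every list. Of 19310 merged regions, 320 met this rule, against 955 with a kept peak in 3 lists, 3272 in 2 and 14763 in 1. The levels of fold enrichment given for the 320 regions are therefore a description and were not tested.

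All cultures were wild type C57BL/6 MEFs, taken from embryos at 13.5 days and used after 5 to 6 passages. They were either kept in normal medium or starved for 2 h in nutrient-deprived medium, with 2 replicates per condition. YTHDF3-bound RNA was recovered with an antibody against the endogenous protein, and each list set 1 IP library of polyA RNA against input. Nothing in the labels says whether the replicates came from separate embryos, so p-values measure the spread between these samples, which may be technical.

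YTHDF3 belongs to the YTH domain proteins, which bind RNA that carries N6-methyladenosine (m6A), the most abundant internal modification of mRNA. The methyl group is placed by the METTL3 complex, mostly at sites whose center reads GGAC or a close variant, and it is known to be dense in long internal exons and around stop codons. YTHDF3 has been linked with translation and decay of the mRNAs it binds. IP enrichment over input separates bound RNA from abundant RNA, although a ratio over few input reads is imprecise.

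To show what RNA lies in such regions, 150 bases are printed for 9 genes. They were taken from the regions with at least 20 input reads in every list, 1 per gene in order of the lowest fold over the lists, at or near the middle of the bases that the lists shared, wherever a window wholly outside annotated UTRs was found. The sequences are those of the mm10 (GRCm38) genome on the transcribed strand, from 5′ to 3′, and GGAC is in capitals.
Peg13 (chr15:72807806-72807955, minus strand): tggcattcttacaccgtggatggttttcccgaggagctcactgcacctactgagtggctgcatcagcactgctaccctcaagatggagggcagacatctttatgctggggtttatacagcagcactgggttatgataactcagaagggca
Soga1 (chr2:157027441-157027590, minus strand): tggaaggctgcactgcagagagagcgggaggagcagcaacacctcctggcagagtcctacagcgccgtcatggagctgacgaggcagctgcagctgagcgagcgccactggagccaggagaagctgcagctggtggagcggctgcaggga
Snx33 (chr9:56926631-56926780, minus strand): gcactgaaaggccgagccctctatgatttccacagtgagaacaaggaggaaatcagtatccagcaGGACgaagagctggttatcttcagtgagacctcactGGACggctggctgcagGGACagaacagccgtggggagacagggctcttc
Zfp862-ps (chr6:48529256-48529405, plus strand): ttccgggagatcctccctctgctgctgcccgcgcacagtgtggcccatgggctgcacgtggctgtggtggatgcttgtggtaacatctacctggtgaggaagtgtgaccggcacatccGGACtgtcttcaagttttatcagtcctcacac
Itpripl1 (chr2:127141471-127141620, minus strand): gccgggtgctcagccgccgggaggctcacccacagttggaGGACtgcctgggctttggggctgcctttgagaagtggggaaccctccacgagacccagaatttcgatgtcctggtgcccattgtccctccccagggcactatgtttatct
Plcxd2 (chr16:45980431-45980580, minus strand): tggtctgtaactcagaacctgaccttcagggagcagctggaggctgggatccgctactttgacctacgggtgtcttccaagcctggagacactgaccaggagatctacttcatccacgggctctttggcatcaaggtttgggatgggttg
2900026A02Rik (chr5:113191301-113191450, minus strand): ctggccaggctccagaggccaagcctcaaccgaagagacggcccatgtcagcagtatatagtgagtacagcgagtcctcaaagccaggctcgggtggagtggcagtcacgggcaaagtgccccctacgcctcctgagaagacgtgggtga
Tmppe (chr9:114405806-114405955, plus strand): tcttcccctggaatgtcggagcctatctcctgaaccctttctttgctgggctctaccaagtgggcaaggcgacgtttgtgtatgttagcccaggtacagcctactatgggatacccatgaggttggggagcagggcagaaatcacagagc
Vps18 (chr2:119293656-119293805, plus strand): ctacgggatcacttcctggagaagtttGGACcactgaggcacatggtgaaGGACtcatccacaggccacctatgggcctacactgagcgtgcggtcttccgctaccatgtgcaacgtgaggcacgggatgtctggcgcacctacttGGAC
The windows of Peg13, Soga1, Plcxd2, 2900026A02Rik and Tmppe held no GGAC, whereas those of Snx33 and Vps18 held 3 each. The folds were measured over whole peaks and not over these 150 bases, and the whole Peg13 region held 13 GGAC. The windows therefore do not show enrichment without these letters.

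Peg13, the imprinted non-coding RNA in the first of these sequences, led the regions with at least 20 input reads in every list by the lowest of its 4 folds. Its region (chr15:72805551-72810410) covered nearly the whole single exon of 4725 bp. The IP/input fold was 5.09 and 5.78 in the normal cultures, and 5.17 and 5.39 in the starved ones. These folds rested on 4374, 4737, 5204 and 4549 IP reads and on 693, 820, 431 and 563 input reads, in the same order. The starved values lay within the range of the normal values.

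Peg13 was 1 of 40 regions, on 30 genes, that had at least 20 input reads in their highest peak in every list. In these 40 regions the folds were modest, with medians of 4.83 and 4.74 in normal and 4.37 and 5.19 in starved MEFs. Their spread over the 4 lists had a median SD of 0.19 on the log2 scale (n = 4 lists). The other 280 regions had a median SD of 0.43 and medians of 7.26, 6.00, 6.97 and 6.30. The regions with the largest folds were thus those with the fewest input reads, which the plot of fold against input reads shows for each list.

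**Figure D1:**
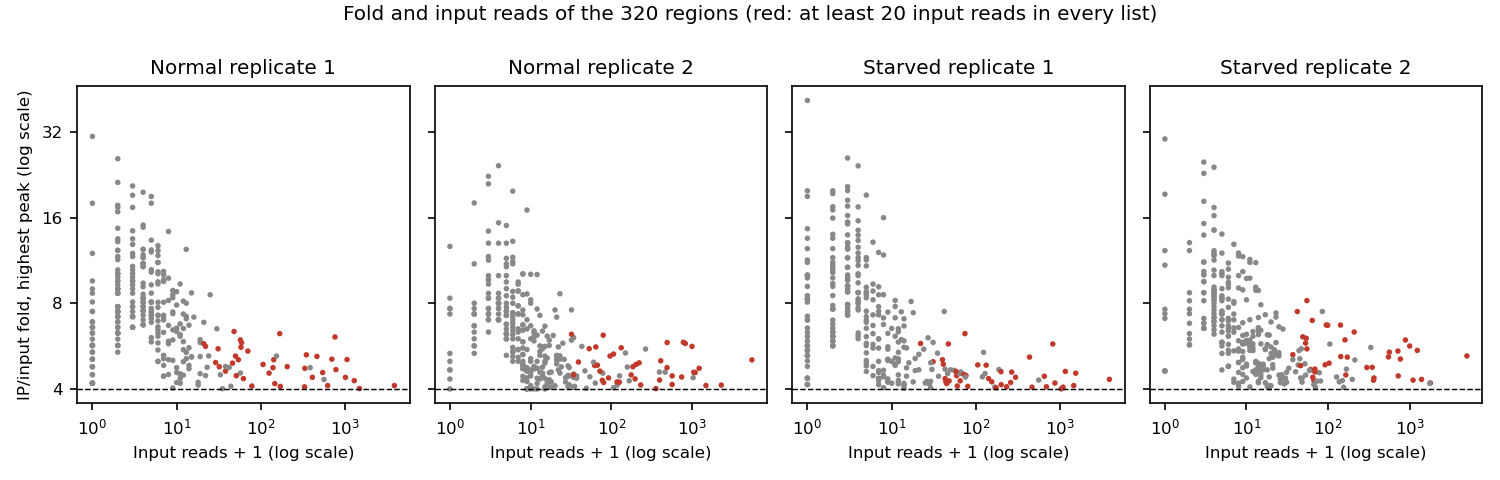
IP/input fold of the highest peak (log scale, rule at 4 dashed) against input reads plus 1 (log scale) for the 320 regions in each of the 4 lists, 1 point per region. Red points are the 40 regions with at least 20 input reads in every list, which stay below 8.2-fold, whereas gray points with few input reads reach 41.2-fold.

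Input was sparse in most members. The median input reads in the highest peak were 4, 8, 4 and 9 in normal replicates 1 and 2 and starved replicates 1 and 2, against 44.5, 53, 80.5 and 84 IP reads. In 171 of the 320 regions (53.4%) the input value was at or below 3 in at least 1 list, and there the fold was computed against 3. At least 1 input read was present in every list in 246 regions, at least 10 in 51 and at least 100 in 21. PCR duplicates are not marked, so an exact interval of an IP/input ratio covers counting error only.

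Folds of members thus rested on very different numbers of reads. Snx33, a sorting nexin of membrane trafficking, had folds of 6.09, 4.58, 5.75 and 5.94 on 756 to 1043 input reads. Kcnd2, a voltage-gated potassium channel subunit, reached 25.7, 15.3, 19.4 and 25 on 1 to 3 input reads and 46 to 92 IP reads. The Tmem229b region had 0 or 1 input reads in every list, and its full 1160 bp has a copy elsewhere in the genome at 95% identity or more, so its reads may be shared with that copy.

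Member regions also held less RNA per kilobase than other bound regions. For this comparison, peaks with the thresholds of the study (2-fold and p below 0.0001) were merged into 6531 regions present in all 4 lists, of which 318 held a member and 6213 did not. Median input was 13.3, 28.2, 15.2 and 23.6 reads per kb in the 318, against 108.9, 154.4, 100.0 and 131.2 in the others. Median IP was 118.5, 137.2, 200.9 and 179.2 reads per kb, against 364.1, 425.0, 623.5 and 583.3. Because the rule divides by input, the low input is in part set by the choice of members, and no test was made.

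Among the genes of the 40 well-covered regions were Bdnf, a neurotrophin, Cic, a transcriptional repressor downstream of receptor tyrosine kinases, Itpkb and Ip6k1, inositol phosphate kinases, and Vps18, a subunit of the complexes that tether endosomes and lysosomes. Extl3 and Ndst1, both enzymes of heparan sulfate synthesis, were also present. The lowest fold of any list was between 4.0 and 5.09 in the 40 regions, and the highest between 4.61 and 8.17.

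**Figure D2:**
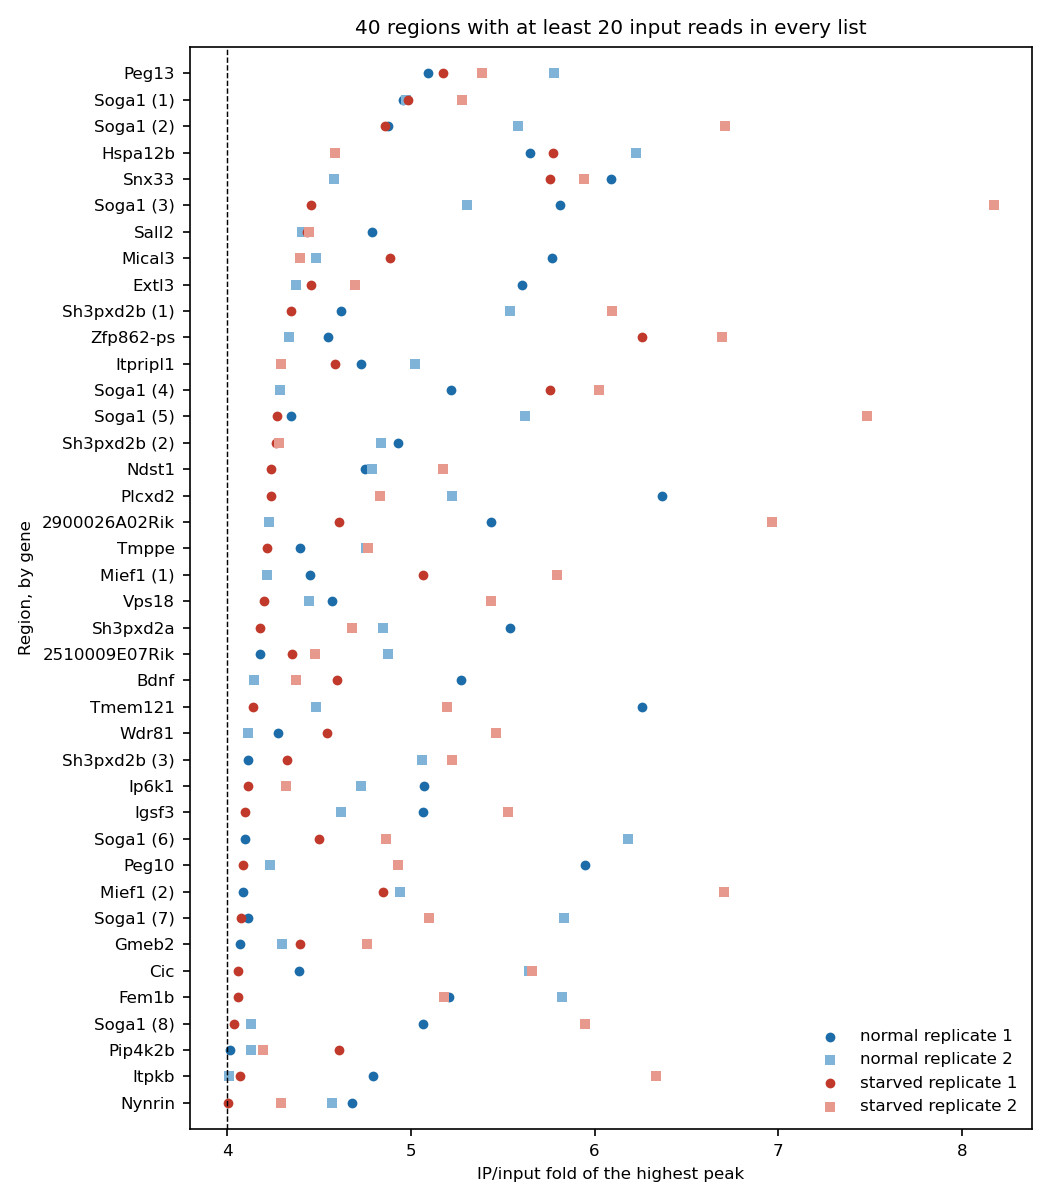
IP/input fold of the highest peak in each list (points, colored by condition, shaped by replicate) for the 40 regions with at least 20 input reads in every list, by gene and ordered by the lowest fold; the dashed line is the rule at 4. Peg13 is at the top, with its 4 points between 5.09 and 5.78, and numbers in brackets separate regions of the same gene.

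The member with the most IP reads per base lay on Sh3pxd2b, which encodes a scaffold of podosomes. This region (chr11:32421801-32428200) covered the last exon, and its lowest level was 3070 IP reads per kb, in normal replicate 1. Its folds were 4.11 and 5.06 in normal and 4.32 and 5.22 in starved MEFs, on 3827 to 5470 input reads. Smaller members lay on coding exons of the same gene, exon 4 (4.93, 4.84, 4.27 and 4.28) and exon 8 (4.62, 5.54, 4.35 and 6.10).

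Fem1b, a substrate receptor of a CUL2 ubiquitin ligase, followed with 2419, 2310, 3521 and 3387 IP reads per kb over its first exon. Its folds were 5.20 and 5.82 in normal and 4.06 and 5.18 in starved MEFs. Bdnf had 2107, 2080, 1904 and 2150 IP reads per kb over its coding exon, with folds of 5.27, 4.15, 4.6 and 4.37. Both were thus lower in starved replicate 1 than in normal replicate 1, whereas only Fem1b was also lower in replicate 2. A region in the 3′ UTR of Pip4k2b, a phosphatidylinositol phosphate kinase, lay just above the threshold in every list, at 4.01, 4.13, 4.61 and 4.20 on 1148 to 2283 input reads.

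Soga1, a gene first described for its effect on autophagy and glucose output, held more members than any other gene, 9 of its 14 regions present in all 4 lists. The 9 members were spread from exon 2 to exon 14 of 15 and, in order of list, had median folds of 4.95 and 5.30 in normal and 4.50 and 6.03 in starved MEFs. The most abundant of them (chr2:157019971-157021780, exon 14) had folds of 4.11, 5.83, 4.07 and 5.10 on 618 to 774 input reads. The steadiest (chr2:157022581-157023080, exon 13) had 4.95, 4.97, 4.99 and 5.28 on 28 to 38 input reads.

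The 5 other regions of Soga1 lay on exons 1, 5, 7, 12 and 15. The region at the last exon (chr2:157010411-157018720) is 8310 bp long, of which 2701 bp are the annotated exon and the rest lies mostly downstream of the gene. It had the lowest summed folds of the 14 regions in each list, at 2.93, 3.38, 2.99 and 3.23 on 1941 to 3719 input reads. Starved replicate 2 was above the other lists at 9 of the 14 regions. Each of the 9 members contained at least 1 GGAC over its whole length. The other regions present in all 4 lists had a median of 4.08 GGAC per kb, so this is no trait of Soga1. In the deposited lists the name on 7 of the 9 is that of the neighboring gene Dsn1, whose promoter is closer.

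**Figure D3:**
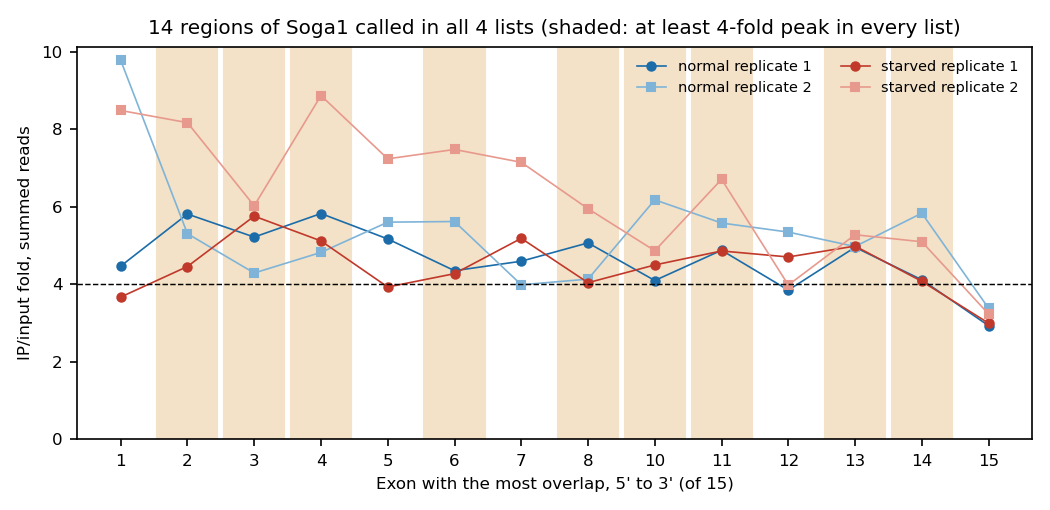
IP/input fold of summed reads (y axis) in each list for the 14 regions of Soga1 present in all 4 lists, ordered 5′ to 3′ by exon (x axis); shaded columns are the 9 regions with a peak of at least 4-fold in every list. The region at the last exon, which runs on downstream of the gene, has the lowest fold in every list, between 2.93 and 3.38.

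Members came from 261 genes, 37 of which held more than 1, and 291 of the 320 (90.9%) lay on protein-coding genes. The share on protein-coding genes was higher, at 97.9%, in the 6213 other regions present in all 4 lists. Of these 37 genes, Acan, Adcy9, Mical3, Sh3pxd2b and Timp2 held 3 each. Acan encodes aggrecan, the large proteoglycan of cartilage, and its long coding exon carried members with folds of 13.3, 7.33, 15.6 and 12.2 and of 7.19, 6.00, 15.4 and 4.6. The 3 members of Timp2, a metalloproteinase inhibitor, were all intronic and each had fewer than 4 input reads in at least 1 list.

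Other regions of the same genes had higher folds than regions elsewhere. In genes that hold a member, 362 other regions were present in all 4 lists, on 101 genes, with a median mean log2 fold of 1.90 from summed reads. In the 5851 regions on genes without a member or on no gene the median was 1.56, and in the 318 regions that hold a member it was 2.58. Regions of a gene share its RNA and its input level, so these values are a description across regions and not replicates.

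Where regions lay on the transcript differed between members and the other regions. The center of 133 members (41.6%) was in coding sequence, of 90 (28.1%) in a 3′ UTR, of 32 (10.0%) in an intron, of 25 (7.81%) outside genes, of 22 (6.88%) in a 5′ UTR and of 18 (5.62%) in an exon of a non-coding RNA. On the merged regions that hold them, coding centers made up 41.2% and 3′ UTR centers 27.7%, against 58.7% and 17.2% of the 6213 other regions. Exons of non-coding RNAs made up 5.66% against 1.32%. A stop codon was inside 27.4% of the regions that hold a member and 20.4% of the others.

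Member regions lay mostly on long exons. The exon with the most overlap had a median length of 2178 bp in regions that hold a member and 284 bp in the others, and it was at least 1000 bp long in 66.3% against 31.7%. It was the last exon in 53.3% against 26.1%, and the transcripts had a median of 7 exons against 13. The regions themselves were also longer, with medians of 1190 bp and 810 bp. Regions with a kept peak in 3 lists, which the rule left out, lay between these values for exon length, with a median of 597.5 bp and 43.8% at 1000 bp or more.

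**Figure D4:**
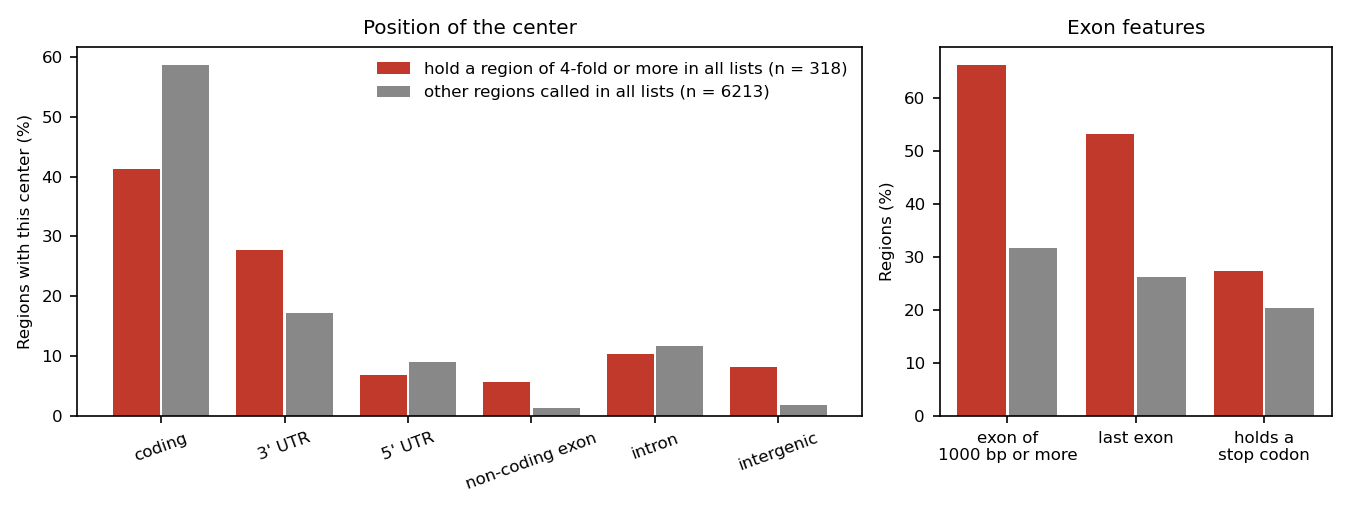
Left, share (%) of regions whose center lies in each transcript part; right, share on an exon of at least 1000 bp, on the last exon, and holding a stop codon. Red bars are the 318 regions that hold a member and gray bars the 6213 other regions present in all 4 lists; coding centers are fewer (41.2% against 58.7%) and long exons more frequent (66.3% against 31.7%) in red.

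The 40 well-covered members had another distribution, with 24 centers (60.0%) in coding sequence and 8 (20%) in a 3′ UTR. Their exons had a median length of 1570.5 bp and 14 (35.0%) were last exons. Coding centers were thus at 58.7% in the other regions and at 60.0% in these 40, while the lower share of all members came from the 280 with fewer input reads (38.9%).

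GGAC was about as frequent in the members as elsewhere. On the transcribed strand it occurred in the central 200 bp of 189 of the 310 members on a gene (61.0%), against 61.8% of the 6190 other regions on a gene. The reverse complement, GTCC, which marks the opposite strand, occurred in 58.1% of these members and 55.5% of the others. Per kilobase of the whole region the medians were 4.69 GGAC and 4.25 GTCC in members, and 4.08 and 3.88 in the others. In the 40 well-covered members, 32 (80%) had GGAC in the central window and 57.5% had GTCC. Median GC content was 54.1% in regions that hold a member and 52.3% in the others. A match is a description of the letters and not of a modified site.

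The 4 lists did not always mark the same bases. In 200 of the 320 members (62.5%) at least 1 base was covered by kept peaks of all 4 lists, with a median of 265 shared bases. The strongest 200-bp windows of the peak caller overlapped in all 4 lists in 73 members. Among the 40 well-covered members these numbers were 39 and 28, and among the other 280 they were 161 and 45. The exception among the 40 was the 3′ UTR region of Mical3, a flavoprotein that acts on actin, with folds of 5.77, 4.48, 4.89 and 4.40 from peaks at different places.

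By the rule used to name regions with high folds and at least 20 IP and over 3 input reads in every list, which 104 members met, Lrfn1 led. Lrfn1 encodes a synaptic adhesion protein, and its region (chr7:28466431-28468220) had folds of 10.4 and 7.25 in normal and 7.18 and 6.88 in starved MEFs on 4 to 19 input reads. Bdkrb2, the bradykinin B2 receptor, had 10.2, 8.83, 11.6 and 6.33 on 4 to 6 input reads. A region in the 3′ UTR of Ksr1, a scaffold of the RAF and MEK kinases, was at 5.96, 6.43, 6.11 and 6.33 on 4 to 18 input reads.

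Next in this order were Slc35b4, a nucleotide sugar transporter (9.80, 5.94, 10.8 and 6.20), Rtn4rl1, a receptor of the Nogo receptor family (6.21, 5.64, 8.57 and 7.29), and Mfsd4b4 (7.67, 8.0, 5.68 and 5.34). Rtl5, a gene on the X chromosome derived from a retrotransposon, had 5.22, 6.64, 5.38 and 5.75. Pcdhb17, a protocadherin, had 9.51, 6.00, 5.14 and 6.18, and Kcnj4, a potassium channel, 12.3, 8.57, 7.48 and 5.08. Peg13 was the remaining region of the 10. All except Peg13 and Rtl5 had fewer than 10 input reads in at least 1 list, and the normal and starved values overlapped in 6 of the 10 regions. Both starved values lay below both normal values in Lrfn1, Mfsd4b4 and Kcnj4, and above them in Rtn4rl1. With so few values per condition, the groups can separate in a region without any change. How often they separated over all members or all regions was not counted. These separations are therefore a description and are no evidence of a change in the regions named.

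Just inside the rule, 8 members had a fold of exactly 4 in normal replicate 2, where values are whole reads, among them Elfn1, Ptch1 and Fbxo10. Just outside it, 1 region each of Gprc5b, Elmsan1 and Dnmbp had a kept peak in 3 lists. Their folds were 3.9999, 3.9994 and 3.9994 in starved replicate 2. Gprc5b also holds 2 members in other regions, with folds between 4.04 and 22.9. Of the 955 regions kept in 3 lists, 422 had a deposited peak in the remaining list, with a median fold of 3.48, and 533 had none.

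The next question was whether starvation changed YTHDF3 enrichment in these regions. The rule asked for at least 4-fold in every list, so a small number of changed members is in part set by the choice. Within replicate 1 the median log2 change of the fold, starved over normal, was -0.09, and within replicate 2 it was 0.07. The fold was higher after starvation in both replicates in 83 members (25.9%) and lower in both in 81 (25.3%). Over the 6531 regions present in all 4 lists the shares were 28.1% higher and 24.7% lower. The counts of members in the 2 directions differed by 2.

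A change of at least 1.8-fold in both replicates was seen in 6 members that were higher (1.88%) and 4 that were lower (1.25%). Of all 6531 regions, 0.475% were higher and 0.337% lower by this measure. All 10 members had 5 or fewer input reads in at least 1 list, and in 7 of the 10 no base was shared by the kept peaks of all 4 lists. None of the 40 well-covered members changed by that much. Their changes lay between -0.60 and 0.46 on the log2 scale in replicate 1 and between -0.44 and 0.72 in replicate 2.

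Ordered by the smaller of the changes in the replicates, the first of the higher members was an intronic region of Sbno2, a transcriptional coregulator (chr10:80075921-80077550). Its folds were 7.18 and 6.00 in normal and 19.9 and 15.2 in starved MEFs. IP reads were 24 and 54 in normal and 91 and 56 in starved MEFs, and input reads were 2, 9, 0 and 2. With 0 input reads, the 19.9 of starved replicate 1 is the IP value over the floor of 3. The exact 95% interval of the ratio there began at 10.4, and in normal replicate 1 it was 2.40 to 84.5. The groups did not overlap, but the counting intervals did.

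Gdf6, a ligand of the BMP family, had folds of 4.51 and 4.86 in normal and 19.9 and 11.8 in starved MEFs in its 3′ UTR, on 10, 7, 2 and 3 input reads. Summed over the whole region its IP/input ratio changed by 0.11 ± 0.43 on the log2 scale (SE, 2 replicates per condition). No base was shared by the kept peaks of all lists, and the reason for the smaller change was not tested. The others with higher values were in the 3′ UTRs of Pou2f1, the POU factor Oct-1 (4.79, 4.36, 12.4 and 8.68), and Foxred2, a flavoprotein of the endoplasmic reticulum (9.58, 7.33, 19.0 and 16.2), and in coding sequence of Elfn1 (5.88, 4.0, 11.6 and 8.90). Nol4, the sixth, had 6.29, 6.50, 12.1 and 19.3. Summed over whole regions, the ratio changed by 1.72 ± 0.83 in Sbno2, 1.52 ± 1.23 in Pou2f1, 0.81 ± 1.48 in Foxred2 and 0.08 ± 0.68 in Elfn1. The smaller change of Gdf6 was thus not shared by all of them.

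The regions with lower values after starvation also had few input reads in at least 1 list, though not in every list. Fignl2 had folds of 12.0 and 21 in normal and 4.34 and 10.3 in starved MEFs on 2, 2, 8 and 4 input reads. Amz1, a metalloprotease, had 11.0, 10.0, 4.68 and 4.94 on 3, 2, 29 and 12 input reads. C030014I23Rik, an RNA without a known protein, had 11.1, 9.0, 4.67 and 4.67 on 5, 4, 49 and 4 input reads. Tmem268 had 7.89, 19.8, 4.17 and 7.33 on 9, 5, 11 and 6 input reads. The fifth in order, Bhlhe22, a basic helix-loop-helix factor, had 8.0, 11.0, 4.46 and 4.35 on 12, 4, 5 and 47 input reads. It missed 1.8-fold in replicate 1 at a log2 change of -0.84. Summed over whole regions, the ratio changed by -1.12 ± 0.42 in Fignl2, -1.38 ± 0.66 in Amz1 and -0.45 ± 0.34 in C030014I23Rik. It changed by -0.85 ± 0.27 in Tmem268 and -0.35 ± 0.37 in Bhlhe22. The edgeR adjusted p was 0.999 in each of these regions.

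**Figure D5:**
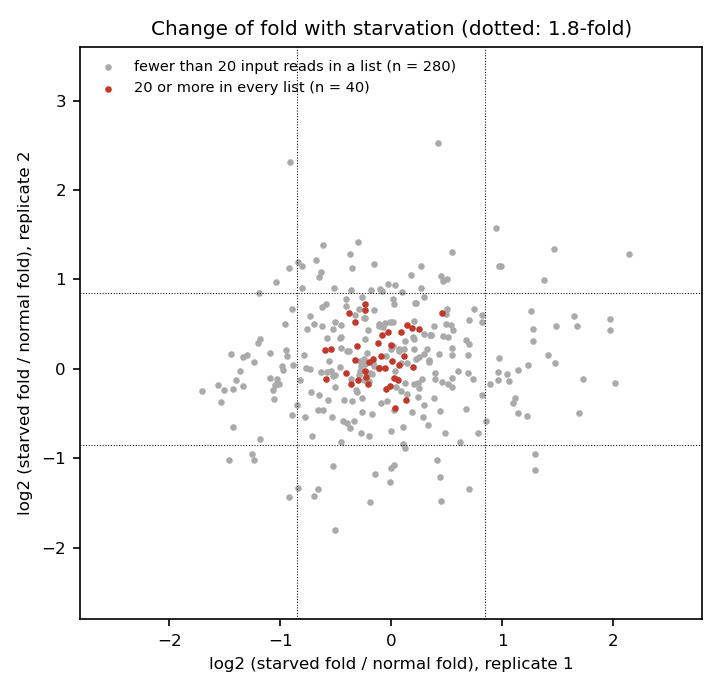
Change of the IP/input fold with starvation, log2 of starved over normal, in replicate 1 (x axis) and replicate 2 (y axis), 1 point per member; dotted lines mark 1.8-fold. The 40 well-covered members (red) lie inside the dotted lines, and 6 of the gray points lie beyond them at the upper right and 4 at the lower left.

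The reads of all 6531 regions were then fitted with edgeR, with a member tested as the region that holds it (318 of 320). The IP/input ratio changed in none of the 318 members at a Benjamini-Hochberg adjusted p under 0.05, against 1 of all 6531 regions (0.0153%). At an unadjusted p under 0.05, 5 members were higher and 16 lower (6.60% in all), against 82 higher and 101 lower of the 6531 regions (2.8%). The 16 became 7 without normal replicate 1 or starved replicate 2, and 28 without normal replicate 2. DESeq2 called no member after adjustment and 0.0153% of all regions. The median log2 change was -0.10 in members and -0.02 in all regions. In the 40 well-covered members the change ranged from -0.39 to 0.51 with a median SE of 0.23, and in the other members the median SE was 0.57.

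The IP and input levels were tested in the same way, as reads per base of peak. No member passed in edgeR for IP reads, where 0.842% of all regions did. Unadjusted, 7 members were higher and 25 lower (10.1%), against 183 higher and 461 lower of the 6531 (9.86%). No member passed for input reads, where 1.22% of all regions did. Unadjusted, 11 were higher and 10 lower (6.60%), against 185 higher and 340 lower of the 6531 (8.04%). DESeq2 called 2 members for IP (2.57% of all regions) and 3 for input (1.96% of all regions). Fewer cells with an RNA and less RNA per cell cannot be told apart in these bulk libraries.

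Of the 5 regions with most IP reads per base, the edgeR change of the ratio was smaller than its SE in 4, and so it was in Peg13. It was 0.03 ± 0.17 (SE, 2 replicates per condition) in the 3′ UTR region of Sh3pxd2b, -0.07 ± 0.18 in Peg13, 0.08 ± 0.18 in Pip4k2b and -0.09 ± 0.21 in Bdnf. It was -0.29 ± 0.19 in Fem1b and -0.14 ± 0.20 in exon 14 of Soga1. The largest among the 40 was in the pseudogene Zfp862-ps, 0.51 ± 0.23, whose folds were 4.55 and 4.34 in normal and 6.26 and 6.69 in starved MEFs (edgeR unadjusted p = 0.041 and adjusted p = 0.999). The edgeR adjusted p was 0.999 in each of these other regions too.

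Members and all regions were then compared over lists of named genes, which do not cover every gene of a class. Among the genes that the study named for autophagy, only Foxo3, a transcription factor that drives autophagy genes, held a member (0.312% of members). The list had 17 regions present in all 4 lists, on 4 genes (0.260% of all regions). The Foxo3 region (chr10:42274571-42277180) spans exon 2 and the adjoining intron. It holds no stop codon. The paper reports m6A peaks on this mRNA around the stop codon, and YTHDF3 binding there from RIP-seq and other assays. A region can be bound and still miss the 4-fold rule in a list, so the position of this member is no contrast with the paper. The folds of the region were 4.55, 5.52, 4.30 and 10.1. The first 3 rested on 56, 263 and 554 input reads. The highest, in starved replicate 2, came from a peak with 37 IP and 2 input reads, whose exact 95% interval was 3.18 to 106. Fitted as a whole, the IP/input ratio of the region changed by 0.20 ± 0.22 on the log2 scale (edgeR adjusted p = 0.999). Its IP reads per base changed by 0.52 ± 0.20 (edgeR unadjusted p = 0.035, adjusted p = 0.443) and its input reads by 0.32 ± 0.32. With the replicate number as a block, the edgeR adjusted p for IP reads was 0.0487. In that setting 2 members were called higher and 2 lower, against 4.21% of all regions. Those called lower were Peg13 (-0.53, edgeR adjusted p = 0.0437) and the receptor gene Fzd5 (-1.15, edgeR adjusted p = 0.00864). A call in this setting is thus not particular to Foxo3. The core autophagy machinery held none of the members, with 21 regions on 7 genes present in all 4 lists (0.322% of all regions), so both shares were near those of all regions.

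The other lists with no member each held between 0.0306% and 0.934% of all regions. They were the m6A writers, erasers and readers (10 regions in all 4 lists), ERK feedback genes (18), TGF-β and BMP genes (44; the list leaves out the member Gdf6), Hippo genes (43), Notch genes (54), Kelch and BTB adaptors (61), ribosomal proteins and translation factors (19) and histones (2). Chromatin modifiers held 1 member, on Chd8, of 232 regions, or 0.312% of members against 3.55% of all regions. The lists were drawn up with earlier results of these data known, and no test was made over them.

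Protocadherins, adhesion proteins whose variable first exons are long, held 11 members on 9 genes, 3.44% of members against 0.536% of all regions. Pcdhac2 held 2, with folds of 12.3, 17.0, 10.9 and 12.0 and of 11.0, 24.3, 7.78 and 7.0. Pcdhgc4 had 7.48, 22.3, 18.4 and 10.2, and Pcdhb22 had 9.28, 7.40, 9.43 and 12.2. In Pcdh1 the folds were 7.27, 10.8, 7.70 and 9.07 in the 3′ UTR. All 11 had 4 or fewer input reads in at least 1 list, and paralogs of this family can share reads.

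Zinc finger and BTB genes held 15 members on 13 genes, 4.69% of members against 3.38% of all regions. Zbtb3 had folds of 8.68, 6.20, 6.68 and 7.12, and Zscan20 had 5.58, 7.75, 17.4 and 11.7. The listed receptors coupled to G proteins and their regulators held 6 members on 4 genes, 1.88% against 1.32%, among them Gpr85 (5.69, 11.0, 10.0 and 9.0). Bdkrb2 and Gprc5b are members outside that list. Developmental transcription factors held 7 members, 2.19% against 1.21%, among them Satb1, a chromatin organizer (8.98, 7.33, 12.4 and 14.5), and Alx4 (11.7, 5.00, 9.84 and 4.57). Ubiquitin ligases and deubiquitinases held 7 on 6 genes, 2.19% against 3.2%, led by Rnf144b (10.8, 8.40, 15.2 and 12.9).

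Wnt pathway genes held 4 members, 1.25% against 0.658%. They were the receptors Fzd4 (4.76, 5.21, 6.98 and 7.07) and Fzd5 (4.32, 4.38, 4.94 and 5.60), Apc2 (9.35, 6.67, 6.11 and 17.4) and Znrf3, a ligase that removes Frizzled receptors (6.45, 5.40, 4.15 and 11.4). In none of the 4 did the kept peaks of all lists share a base. The 4.94 of Fzd5 rested on 15 input reads, against 333 to 1023 in the other lists. Over its whole region, IP reads per base changed by -1.15 ± 0.20 on the log2 scale (edgeR adjusted p = 0.0549). Input reads per base changed by -1.14 ± 0.28 (edgeR adjusted p = 0.0747). Solute carriers held 3 members, 0.938% against 2.68% of all regions. The matrix list, which leaves out Acan and Timp2, held Mmp28 (0.312% against 1.13%). Cytoskeletal regulators held Fmn2 and Plekha8 (0.625% against 2.34%), and serum immediate-early genes held Fosb (5.80, 5.08, 4.36 and 8.71), 0.312% against 0.291%.

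Peaks summed to between 8828814 and 19284322 IP reads and between 2510124 and 5162203 input reads per list over 17546 to 24911 peaks. Reads outside peaks were not analysed here, so library depth is unknown. Of 12 fibroblast markers, 7 had a peak in at least 1 list, among them Pdgfrb, Col3a1 and Twist2 in all 4. No peak carried the name of Col1a1, Vim, S100a4, Postn or Twist1. Fn1 and Thy1 had 1 peak each, in normal replicate 2 only, on 6 and 0 input reads. No peak carried the name of Ptprc, Cd68 or Itgam (leukocytes), of Pecam1, Cdh5 or Tek (endothelium) or of any of 4 epithelial markers, peaks on Kdr held 0 to 5 input reads, and all 30 peaks named Csf1r overlapped exons of the neighboring Pdgfrb. Absence of a peak is not absence of the RNA.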

How the data were processed

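YTHDF3 RIP-seq of MEFs gave 4 deposited peak lists, 1 per IP library. Per the labels and the study's methods, the authors aligned reads to mm10 with TopHat2 2.0.13, used diffReps to find peaks of IP over input, and took annotation from HOMER. The input of the same condition and replicate is assumed, since the lists do not name it. The authors deposited a normalized signal per peak, which is read counts times 1 factor per library (1 in normal replicate 2, where the values are counts), and a p-value of diffReps. Their log2 ratios were not used.

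Whole reads were recovered by dividing by the factor (100% of values within 0.006 of a whole number). Folds are IP value over the larger of input value and 3. A member's value is its highest kept peak. edgeR 4.0.16 (R 4.3.3) was run with TMM, the quasi-likelihood test and Benjamini-Hochberg adjustment over all 6531 regions, with a term per culture for the ratio, and DESeq2 1.42.0 as an alternative. In simulated data edgeR recovered 157 of 200 regions changed 2.5-fold with 14 false calls for the ratio (IP: 135 and 13, input: 55 and 3). The 200 were drawn from all 6531 regions. Regions that hold a member had a lower median input per kb, and recovery among them alone was not measured. Genes and transcript parts are from GENCODE vM21. Copies of at least 200 bp and 95% identity were sought with blastn 2.17.0. Python 3.11.15, pandas 2.3.3, numpy 2.4.6, scipy 1.17.1, pysam 0.24.0 and matplotlib 3.10.9 were used. Merging and motif counts were tested on simulated data.

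The members, gene lists, tests and alternatives were chosen with earlier results of these data known. Regions named are the 10 with the highest lowest fold at 20 IP and over 3 input reads in every list, the 5 with most IP reads per base, the 5 with the largest change each way in both replicates, the 3 on each side of the rule, and up to 4 genes per list. Others were named after their values were seen. No sequence of UTRs is printed. MeRIP-seq and other experiments of the study were not analysed here.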

Additional observations from a re-analysis of the deposited data

How the results depend on the processing

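The number of member regions depended on the rule. It was 1450 at 3-fold, 104 at 5-fold, 129 with an input floor of 10 and 90 with 50% reciprocal overlap with a peak of normal replicate 1. Leaving out each list in turn gave 469 to 611, since fewer lists had to hold a peak. Under alternatives chosen after seeing the data it was 200 with a base shared by all 4 lists and 40 with at least 20 input reads in every list. The p threshold, an input floor of 1, 20 IP reads and summed folds kept it within 1.5 times of 320.

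The 10 members changed 1.8-fold in both replicates became 20 at 1.5-fold, 4 at 2-fold, 74 in replicate 1 alone, 57 in replicate 2 alone and 0 of the 40 well-covered members (chosen after seeing the data). Summed values, division by the median of the list and an input floor of 10 gave 11 to 13. The share over all regions was counted only at 1.8-fold in both replicates. Members called for the IP/input ratio were 0 in every alternative but 1: leaving out a library gave 0 to 1, with the call on leaving out normal replicate 1. For IP reads the DESeq2 Wald test called 2 members, against 2.57% of all regions. Leaving out a library gave median log2 changes of -0.23 to -0.05 in members and -0.17 to -0.01 in all regions. For input reads the Wald test called 3, against 1.96% of all regions, and 189 members were tested after filterByExpr. Leaving out a library gave medians of -0.13 to 0.08 in members and -0.15 to -0.01 in all regions. The counts called are small and their causes were not tested.

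Replicates share only a number in the labels. Differences between replicates 2 and 1 correlated across regions between normal and starved MEFs at r = 0.28 (n = 6531) and at 0.04 in the members. With the replicate number as a block, edgeR called 0 members for the ratio (0.0153% of all regions), 4 for IP reads (4.21%) and 3 for input reads (4.5%).

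GGAC occurred in 40% of members on a gene in 100 bp, in 84.8% in 400 bp and, in settings chosen after seeing the data, in 53.9% of the strongest windows of normal replicate 2 and in 80% of the well-covered members. The share in coding sequence was 29.7% by the largest overlap, where introns count, and 60% in the well-covered members. Permutation of 2 against 2 samples cannot reach p = 0.05, and the low input reads limit the precision of the largest folds.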

Other observations

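Near-identical copies touch 10 of the 320 regions (3.12%) and none of the 40 with at least 20 input reads in every list. The folds of Gm21451 (chr14:69459301-69459940) were 30.8, 5.23, 41.2 and 30.2, and it had 22 input reads in normal replicate 2 and 0 in the other lists. The whole 640 bp of this region has a copy of at least 95% identity elsewhere in the genome. Where input reads are 0 these folds are the IP value over the floor of 3, and the ratio itself has no upper limit from the counts. In Zbtb5, a zinc finger gene, 2257 bp had such a copy, and the folds were 9.14, 4.27, 4.64 and 4.23. The region beside Hgsnat, a lysosomal acetyltransferase gene, had 1072 matches of up to 236 bp, with folds of 4.03, 4.38, 4.8 and 4.8. Whether reads were shared between copies was not tested.

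Exons of both strands overlapped in 26 regions (8.12%). The libraries were made with a kit that marks strand, but whether strand was used in counting is not given in the sources used here. In 123 of the 291 regions that overlap an exon the deposited gene name, which is that of the nearest promoter, differed from the gene whose exons the region covers. The well-covered regions of Mief1, a receptor of mitochondrial fission, are named for Atf4 in the deposited table, and their folds were 4.45, 4.22, 5.07 and 5.79 and 4.08, 4.94, 4.85 and 6.70.

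Across the 320 regions, log2 folds of different lists were weakly related. Pearson's r across regions was 0.28 between the normal replicates, 0.37 between the starved replicates, and 0.29 and 0.27 between conditions within replicates 1 and 2. In the 40 well-covered regions these values were -0.08, 0.22, 0.11 and 0.09. All points are at least 4-fold by the rule, which cuts the range, and regions of the same gene are not independent.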
